A study of Mus musculus with 16 samples.

Results

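The comparison described here asked whether knockdown of PRMT1 changed the transcriptome of mouse epicardial cells differently when p53 was also knocked down, in cells that received no TGF-beta. It used 8 of the 16 poly(A) RNA sequencing libraries of the series, 2 for each of 4 siRNA treatments of the MEC1 line: control siRNA, PRMT1 siRNA, p53 siRNA, and PRMT1 and p53 siRNA together. The interaction is the PRMT1 siRNA effect measured on p53 siRNA minus the PRMT1 siRNA effect measured on control siRNA, on a log2 scale. It was tested in 15494 of the 46348 genes of the table, those with enough reads. A positive interaction means that a gene stood higher with both siRNAs than the product of the 2 single effects gives, and a negative one that it stood lower. All 4 groups come from 1 established line grown without TGF-beta, and the libraries are called biological replicates without a statement that they were separate cultures, so p-values rest on the spread between libraries, which may be technical. The siRNA amounts, sequences and time after transfection were not given in the sources used here.

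PRMT1 is the main asymmetric arginine methyltransferase of mammalian cells and modifies histones, RNA-binding proteins and signalling proteins. p53, encoded by Trp53 in the mouse, is a transcription factor that restrains growth and promotes arrest or death under stress, and is held in check by the Mdm2 and Mdm4 proteins. The epicardium is the mesothelial sheet of the heart, from which fibroblasts and mural cells arise by epithelial-to-mesenchymal transition, a process that TGF-beta drives in culture. PRMT1 and p53 have been linked in this transition through splicing of Mdm4. Knockdown of both sets the effect of PRMT1 siRNA beside its effect in cells where the p53 transcript was lowered but not absent.

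Both knockdowns were measured first, as CPM, a gene's share of the reads assigned to genes in its library after TMM scaling. Prmt1, on chromosome 7 (chr7:44975989-44986493, minus strand, GENCODE M21 on GRCm38), stood at 176 and 144 CPM with control siRNA, at 75.1 and 77.7 with PRMT1 siRNA, at 147 and 155 with p53 siRNA and at 79.5 and 68.5 with both. All 4 libraries that received PRMT1 siRNA were below all 4 that did not. Its fall was of like size in both backgrounds: the log2 change was -1.07 on control siRNA and -1.02 on p53 siRNA, and the interaction of 0.04 ± 0.12 (SE; adjusted p = 0.857, edgeR's quasi-likelihood test) had no constant sign across processing choices.

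Trp53 (chr11:69580359-69591874, plus strand) did show an interaction. It stood at 147 and 130 CPM with control siRNA, at 143 and 142 with PRMT1 siRNA, at 56.0 and 54.7 with p53 siRNA and at 89.4 and 91.6 with both. The p53 siRNA libraries were the lowest, and the libraries with both siRNAs lay between them and the libraries without p53 siRNA, with no overlap. The product of the single effects gives 57.1 CPM with both siRNAs, against a measured 90.5 ± 1.57 (SD, n = 2), an interaction of 0.66 ± 0.08 (adjusted p = 0.00289). The p53 transcript was therefore depleted less in the double knockdown than in the single one. Every result below was measured beside that difference, and its part in them was not tested.

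The totals of the 8 libraries ran from 20605046 to 29070046. Of the 10 epicardial and mesothelial markers, Wt1, Tbx18, Tcf21, Upk3b, Msln, Krt18 and Gpm6a were present at 10.3 CPM or more in all 8 libraries, and Krt8, Krt19 and Aldh1a2 stayed at or under 1.62 CPM. The summed epicardial markers ranged from 1312 to 1349 CPM with control siRNA, 1089 to 1152 with PRMT1 siRNA, 1447 to 1519 with p53 siRNA and 1393 to 1439 with both. The 6 cardiomyocyte markers summed to at most 0.266 CPM in any library. The 5 haematopoietic markers summed to at most 1.65 CPM, with Ptprc and Hbb-bs at 0. The 5 endothelial markers summed to between 4.23 and 4.79 CPM with control siRNA, 6.19 and 7.58 with PRMT1 siRNA, 8.28 and 8.31 with p53 siRNA and 9.01 and 9.11 with both. Kdr made up most of that sum and Tie1 was at 0. In bulk RNA, fewer cells of a type and less RNA per cell cannot be told apart.

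The interaction was called in 1522 genes, 9.82% of those tested, with p-values adjusted by Benjamini-Hochberg over all genes tested and a threshold of 0.05. Of these, 809 (5.22%) were higher and 713 (4.6%) lower than the product of the single effects. The changes were mostly modest: the median absolute interaction of called genes was 0.47 on the log2 scale, and 53 genes were higher and 56 lower by 2-fold or more. In all 1522 the 4 differences between a library with both siRNAs and a p53 siRNA library lay outside the 4 differences between a PRMT1 siRNA and a control siRNA library. That was so, above, for 22.6% and, below, for 19.1% of all genes tested. The interaction depends on the scale on which effects are taken to combine, but the sign on the linear CPM scale differed for only 3 called genes.

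Which genes were called depended on transcript length. In the fifth of genes with the shortest transcripts, 99 to 1722 bases, the median interaction was 0.26, with 279 genes called higher and 22 lower. It fell through 0.15, 0.06 and -0.04 to -0.22 in the fifth with the longest, 5061 to 123179 bases, where 29 genes were called higher and 498 lower. Short transcripts stood above long ones, each against its mean over libraries, by 0.19 and -0.11 (log2) in the control siRNA libraries, -0.12 and -0.07 with PRMT1 siRNA, -0.03 and -0.05 with p53 siRNA and 0.37 and 0.14 with both. Replicate 1 of the control siRNA and replicate 1 of both siRNAs were the highest of the 8. A fit with length offsets, which subtracts a smooth curve of this kind from each library, brought the medians of the 5 bins to between -0.01 and 0.06.

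**Figure D1:**
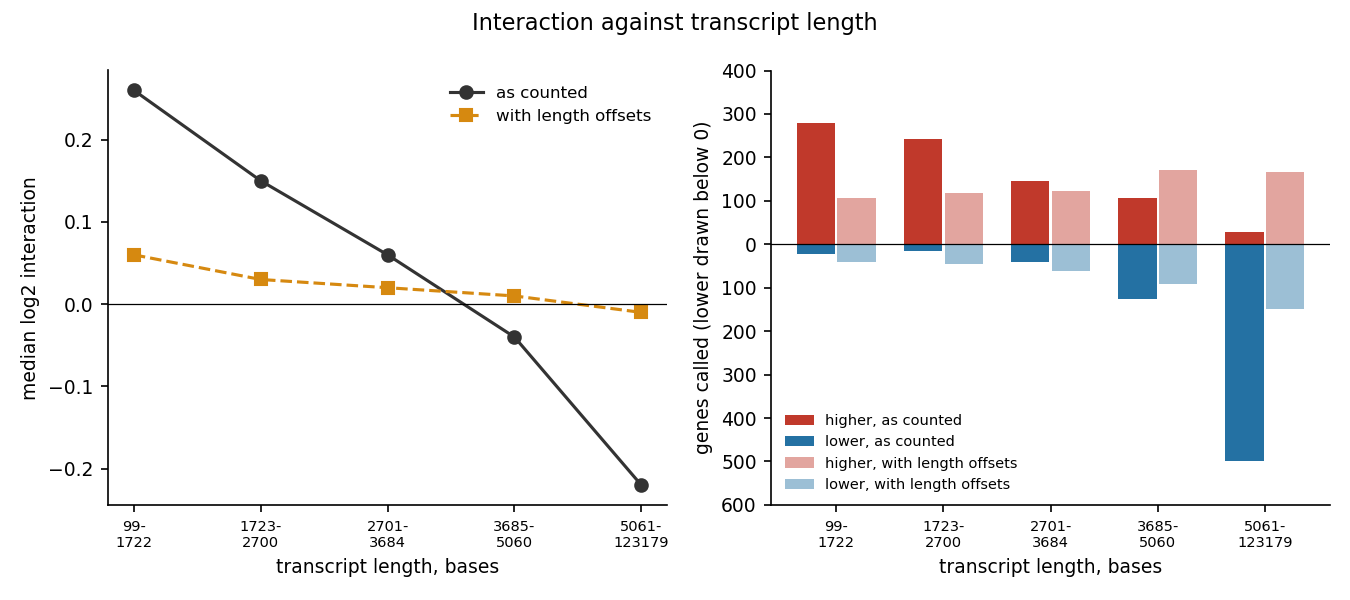
Interaction against transcript length in 5 bins of genes, as the median log2 interaction and as the number of genes called higher and lower, without and with length offsets. The median fell from 0.26 in the shortest to -0.22 in the longest transcripts without offsets, and lay between -0.01 and 0.06 with them.

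With length offsets 1089 genes were called, 7.03%, of which 691 (4.46%) were higher and 398 (2.57%) lower. The fits shared 805 genes, 479 higher and 326 lower, which is 52.9% of the genes called without offsets and 73.9% of those called with them. Counts per list and calls of named genes that differ with offsets are given beside those without. The shares to read a list's counts against are 5.22% higher and 4.6% lower over all genes tested, and 4.46% and 2.57% with offsets. A count of calls was also fragile to single libraries: without control siRNA replicate 1 it was 115, without PRMT1 siRNA replicate 1 or 2 it was 86 or 195, without p53 siRNA replicate 1 or 2 it was 95 or 122, and without replicate 1 of both siRNAs it was 130. Without control siRNA replicate 2 it was 3779, and without replicate 2 of both siRNAs 2950. With all 16 libraries, including the 1 library of p53 siRNA with TGF-beta that stands apart by length (0.92), no gene was called by edgeR, and 1192 had an unadjusted p under 0.05. DESeq2 called 1347 genes on the 15 libraries.

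A core of 58 genes was called without and with offsets, in each of the 16 fits that left out 1 of the 8 libraries, and in both fits restricted to these 8 libraries, 20 fits in all. There were 41 higher and 17 lower genes among them. On all 16 libraries none of them was called without offsets, and 28 (22 higher and 6 lower) were called with offsets. Trp53 is in this last set, with Ccnd1, Klf2, Sod3, Medag, Kcnk2, Adgrb2, Krt14, Igfbp7, Inhbb, Grem1, Fmod, Ephx1, Id2 and Fst. Being selected on the calls themselves, this set is a description.

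Several genes of the core fell with p53 siRNA alone and stood at or near control levels once PRMT1 was also knocked down. The p53 siRNA libraries enter the interaction with a minus sign. Genes picked for a positive value therefore tend to be low in them, and genes picked for a negative value high, by construction. This applies to each p53 siRNA level or effect set beside an interaction below. Klf2 (chr8:72319033-72321657), a zinc finger factor of the Krüppel-like family that vascular endothelium induces under flow, stood at 8.28 and 6.40 CPM with control siRNA, 5.58 and 5.77 with PRMT1 siRNA, 3.49 and 3.96 with p53 siRNA and 8.72 and 7.10 with both. The p53 siRNA libraries were the lowest, and the libraries with both siRNAs overlapped those of the control. The product of the single effects gives 2.88 CPM, and the interaction was 1.47 ± 0.21 (adjusted p = 0.00469; called in 8 of 8 fits that left out 1 library).

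Sod3, the extracellular superoxide dismutase, had the largest interaction of the core genes named here. It stood at 3.69 and 4.84 CPM with control siRNA, at 4.05 and 3.94 with PRMT1 siRNA, at 0.413 and 0.646 with p53 siRNA and at 5.01 and 4.39 with both. Only the p53 siRNA libraries were low. The interaction was 3.22 ± 0.31 (adjusted p = 0.00154). DESeq2 gave no adjusted p-value for Sod3 or for Klf2. Sod3 lies under the mean level of 5 CPM set for the ranking of named genes and was chosen after its values were seen, as were Krt14, Igfbp7, Inhbb, Grem1, Serpinf1, Pcolce, Fmod, Igf2, Fst and Foxo3.

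Kcnk2, which encodes the mechanosensitive potassium channel TREK-1, followed the same order. It stood at 7.34 and 6.99 CPM with control siRNA, 6.60 and 7.10 with PRMT1 siRNA, 2.94 and 3.47 with p53 siRNA and 6.44 and 6.66 with both. PRMT1 siRNA left its level within 0.07 (log2) of the control but raised it by 1.02 on p53 siRNA, an interaction of 1.09 ± 0.16 (adjusted p = 0.00566).

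Adgrb2, an adhesion G protein-coupled receptor, and Krt14, a basal epithelial keratin, passed control levels. Adgrb2 stood at 12.1 and 13.4 CPM with control siRNA, 13.3 and 14.0 with PRMT1 siRNA, 9.18 and 8.28 with p53 siRNA and 18.7 and 20.8 with both. For Krt14 the values were 65.3 and 58.4, 78.4 and 75.1, 45.5 and 45.5, and 101 and 97.1 CPM in the same order. In both genes the libraries with both siRNAs were the highest of the 8 and those with p53 siRNA the lowest. The interactions were 1.08 ± 0.13 and 0.81 ± 0.10 (adjusted p = 0.00289 for each).

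Medag, named for its role in fat cell differentiation, was measured at 13.8 and 13.0 CPM with control siRNA, 10.5 and 10.6 with PRMT1 siRNA, 11.2 and 8.81 with p53 siRNA and 17.2 and 16.1 with both, so both single knockdowns lay below and the double one above the control (interaction 1.09 ± 0.16, adjusted p = 0.00469). Spp1 (osteopontin, a secreted matrix protein, interaction 1.37) and Klhdc8a (1.05) fell with each siRNA alone, and with both stood above p53 siRNA alone in all libraries. Their calls held in 4 and 3 of the 8 fits that left out 1 library.

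Crip2, a LIM-domain protein of cardiovascular cells, Scx (scleraxis, a tendon factor that also marks a subset of proepicardial cells), Ano2 (a calcium-activated chloride channel) and Ly6a (Sca-1, a cell surface antigen) fell with PRMT1 siRNA on control siRNA only, or by less on p53 siRNA. Crip2 stood at 18.6 and 17.7 CPM with control siRNA, 6.60 and 7.60 with PRMT1 siRNA, 17.2 and 15.8 with p53 siRNA and 12.7 and 13.4 with both. The PRMT1 siRNA libraries were the lowest and the libraries with both siRNAs lay between. The PRMT1 siRNA effect was -1.35 on control and -0.33 on p53 siRNA, and the interaction 1.02 ± 0.16 (adjusted p = 0.00694). Scx had an interaction of 1.01, Ano2 of 1.04 and Ly6a of 1.16. Ly6a and the interferon-responsive Ifi27l2b (1.34) have close copies in the genome, and how reads were shared among copies was not given, so both values are uncertain.

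**Figure D2:**
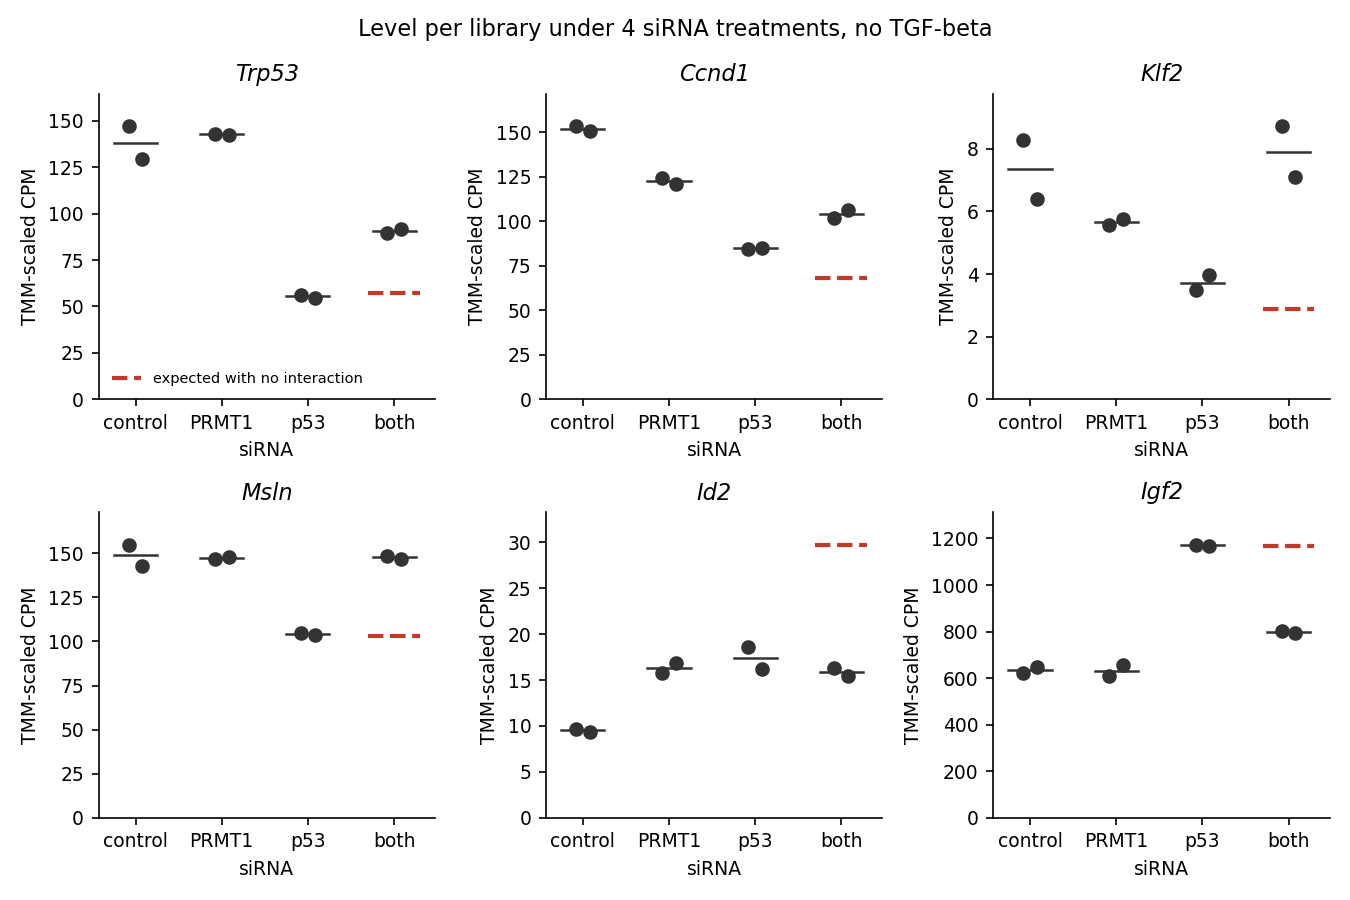
Level of Trp53, Ccnd1, Klf2, Msln, Id2 and Igf2 in CPM, linear axes, 1 point per library for control, PRMT1, p53 and both siRNAs, with the level given by the product of the single effects as a dashed line. For Trp53, Ccnd1, Klf2 and Msln both double-siRNA libraries lie above the line, and for Id2 and Igf2 both lie below it.

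The core genes with a negative interaction named here, Igf2, Id2, Fst, Foxo3 and Tbx20, were each raised by p53 siRNA alone, a direction that selection on the interaction favours. Igf2, an imprinted fetal growth factor (chr7:142650766-142666817), stood at 621 and 648 CPM with control siRNA, 609 and 656 with PRMT1 siRNA, 1173 and 1168 with p53 siRNA and 801 and 794 with both. Both libraries with p53 siRNA alone were the highest, and those with both siRNAs lay between them and the control. The interaction was -0.55 ± 0.09 (adjusted p = 0.00697).

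Id2, an inhibitor of basic helix-loop-helix factors and a BMP target, rose with each siRNA alone but no further with both. It stood at 9.68 and 9.38 CPM with control siRNA, 15.8 and 16.9 with PRMT1 siRNA, 18.6 and 16.2 with p53 siRNA and 16.3 and 15.4 with both, against 29.7 CPM from the product of the single effects. The control libraries were the lowest and the other 6 overlapped. The interaction was -0.90 ± 0.14 (adjusted p = 0.00622). Fst, which encodes the activin antagonist follistatin, had -0.77 ± 0.11 and Foxo3, a forkhead factor of stress and quiescence, -0.67 ± 0.11. Each single siRNA raised both genes.

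Genes in and around the p53 pathway were called in both directions. In the list of arrest and feedback targets 1 of 21 was called higher and 1 lower (2 and 2 with offsets), beside 5.22% and 4.6% of all genes tested, with a median interaction of 0.05 beside 0.03 over all genes. In the list of repair and metabolism targets 1 of 22 was higher and 3 lower (1 and 4 with offsets; median 0.00). In the list of death targets 3 of 18 were higher and 1 lower (1 and 1 with offsets; median 0.15). PRMT1 siRNA raised 11 of the 21 arrest and feedback targets on control siRNA and 11 on p53 siRNA, in comparisons where 12.4% and 16.2% of all genes tested were raised, and 27.9% and 32.5% called in either direction.

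Cdkn1a, which encodes the p21 cell cycle inhibitor, stood at 29.5 and 27.4 CPM with control siRNA, 86.7 and 80.0 with PRMT1 siRNA, 9.13 and 9.29 with p53 siRNA and 38.2 and 37.0 with both. All groups were apart, with PRMT1 siRNA the highest and p53 siRNA the lowest. PRMT1 siRNA raised it by 1.55 (log2) on control siRNA and by 2.03 on p53 siRNA, and the interaction was 0.48 ± 0.09 (adjusted p = 0.0187). On the linear scale the sign is opposite, with a difference of differences of -26.6 CPM. The call was kept in 3 of 8 fits that left out 1 library.

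Pmaip1, the pro-apoptotic BH3-only protein Noxa, went the other way. It stood at 6.80 and 7.57 CPM with control siRNA, 28.6 and 25.9 with PRMT1 siRNA, 7.25 and 5.98 with p53 siRNA and 15.5 and 14.9 with both. The groups without PRMT1 siRNA overlapped, and the PRMT1 siRNA libraries were the highest. PRMT1 siRNA raised it by 1.93 on control and by 1.2 on p53 siRNA, an interaction of -0.72 ± 0.15 (adjusted p = 0.0214; kept in 4 of 8 such fits). Phlda3, an Akt inhibitor induced by p53, had a positive interaction of 0.54 that was kept in 2 of 8, and Ephx1, the microsomal epoxide hydrolase, one of 0.72 that was kept in 8 of 8.

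Mdm2, the ubiquitin ligase of p53 and itself a p53 target, was measured at 104 and 111 CPM with control siRNA, 162 and 165 with PRMT1 siRNA, 78.7 and 82.9 with p53 siRNA and 103 and 109 with both. PRMT1 siRNA raised it in both backgrounds, by 0.61 and 0.39. The interaction of -0.22 ± 0.08 was not called (adjusted p = 0.0776) but was with length offsets (-0.26, adjusted p = 0.04). Mdm4 gene-level expression was 140 and 165, 128 and 133, 159 and 158, and 114 and 130 CPM in the same order of groups. Its interaction was -0.16 ± 0.12 without offsets (adjusted p = 0.375) and 0.07 with them (0.548). These values sum over transcripts and say nothing of Mdm4 splicing.

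Among p53 regulators, 2 of 22 were called higher and 3 lower (1 and 2 with offsets), beside 5.22% and 4.6% of all genes tested. The higher ones were Trp53 itself and Daxx, a histone chaperone that binds Mdm2 (interaction 0.36; kept in 2 of 8 fits that left out 1 library, and not called with offsets). The lower ones were led by Ep300, a histone acetyltransferase (-0.75; kept in 2 of 8). In the list of protein arginine methyltransferases, which counts Btg1 and Btg2 beside the enzymes, none of 10 tested members was called. Of 28 PRMT1 substrates and splicing factors 1 was called, Fubp1 (0 with offsets). The share called in either direction over all genes tested was 9.82%. The called repair and metabolism targets other than Ephx1 had negative values: Abca1, the cholesterol exporter, at -0.92, Rrm2b, a ribonucleotide reductase subunit, at -0.45, and Tigar, a fructose bisphosphatase, at -0.35. Each kept its call in at most 2 of 8 such fits, and Tigar was not called with offsets.

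Mitotic genes stood together. Of 34 genes of the G2 and M phases, 13 were called higher and 0 lower, beside 5.22% higher over all genes tested, with a median interaction of 0.25, and 31 had a positive value. With length offsets 14 were called and all 34 were positive. p53 siRNA alone lowered 31 of the 34 (12.1% of all genes were called in that comparison, 5.81% higher and 6.33% lower). PRMT1 siRNA raised 14 on control siRNA and 31 on p53 siRNA (12.4% and 16.2% of all genes were raised in those comparisons).

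To show what the mitotic members share, the stretches holding the CCAAT box and the CHR (cell cycle genes homology region) are given for 4 of them, written 5′ to 3′ on the strand of the gene from RefSeq promoters on GRCm38.p6. The CHR binds the MuvB complex, which represses these genes in resting cells and takes part in their activation in G2. Capitals mark CCAAT or its reverse complement ATTGG, and TTTGAA or its reverse complement TTCAAA. The stretches are Ccnb2 chr9:70421537-70421729 (minus strand), Cdk1 chr10:69352914-69353128 (minus), Ube2c chr2:164769693-164769913 (plus) and Cdc20 chr4:118437339-118437404 (minus).
Ccnb2: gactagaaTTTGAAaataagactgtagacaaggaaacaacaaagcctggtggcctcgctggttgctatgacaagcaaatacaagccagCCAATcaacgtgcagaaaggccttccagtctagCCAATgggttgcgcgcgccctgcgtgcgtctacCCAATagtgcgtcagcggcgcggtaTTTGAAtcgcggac
Cdk1: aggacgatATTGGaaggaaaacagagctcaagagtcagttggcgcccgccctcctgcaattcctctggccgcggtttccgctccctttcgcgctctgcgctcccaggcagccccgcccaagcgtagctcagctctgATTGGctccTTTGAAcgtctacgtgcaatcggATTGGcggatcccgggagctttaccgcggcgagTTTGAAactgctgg
Ube2c: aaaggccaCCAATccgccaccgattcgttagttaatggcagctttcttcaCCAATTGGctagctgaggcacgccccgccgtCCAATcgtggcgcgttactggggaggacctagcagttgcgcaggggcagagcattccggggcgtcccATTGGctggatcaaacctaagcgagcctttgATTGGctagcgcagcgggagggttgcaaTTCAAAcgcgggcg
Cdc20: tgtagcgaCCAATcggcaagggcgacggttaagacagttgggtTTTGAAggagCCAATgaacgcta

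Promoters, from 250 bases before to 50 after the start of the gene, were matched for 10316 of the 15494 genes (66.6%), and for 28 of the 34 mitotic genes. TTTGAA was present on either strand in 21 of these 28 (75%), against 14.2% of all matched genes, and CCAAT also in 21 of 28, against 43%. Among all genes called higher the share with TTTGAA was 15.4% and among those called lower 12.7%, near the share in all genes. For CCAAT these shares were 48.8% and 37.4%, against 43% of all matched genes. The 4 genes shown were chosen after their values were seen. A match of letters is a description of the sequence and not of a bound site.

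Ccnb2, a mitotic cyclin, stood at 83.0 and 70.2 CPM with control siRNA, 65.0 and 65.1 with PRMT1 siRNA, 60.9 and 61.3 with p53 siRNA and 77.0 and 69.8 with both. The libraries with both siRNAs overlapped those of the control, and both single siRNAs lay lower. Its interaction was 0.50 ± 0.10 (adjusted p = 0.0199). Cdk1, the kinase that drives entry into mitosis, stood at 152 and 134, 145 and 138, 111 and 116, and 164 and 138 CPM in the same order, low with p53 siRNA alone (interaction 0.43 ± 0.12, adjusted p = 0.0447). Ube2c, the ubiquitin carrier of the anaphase-promoting complex, had 0.50, and Cdc20, its activator, 0.39, the latter not called with offsets. Cenpa, the centromeric histone (0.44), Ndc80, a kinetochore component (0.47), and Ccna2, the S and G2 cyclin (0.36), were called in 8 of 8 fits with offsets that left out 1 library, and in 3 or 4 of 8 without offsets.

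The count of called mitotic genes moved with single libraries although the median did not change sign. It was 0 without control siRNA replicate 1, without PRMT1 siRNA replicate 1 and without p53 siRNA replicate 1, 1 without PRMT1 siRNA replicate 2 or replicate 1 of both siRNAs, and 3 without p53 siRNA replicate 2, while the median stayed between 0.19 and 0.31. It was 21 without control siRNA replicate 2, and 2 genes were then called lower. With offsets the count lay between 3 and 16 and all 34 values stayed positive in each of those fits. On all 16 libraries it was 0 without and with offsets.

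Ccnd1, cyclin D1, which carries cells through G1 and is induced by mitogens, was in the stable core. It stood at 154 and 151 CPM with control siRNA, 124 and 121 with PRMT1 siRNA, 84.4 and 85.2 with p53 siRNA and 102 and 106 with both. All groups were apart, and p53 siRNA alone was the lowest. PRMT1 siRNA lowered it by 0.31 (log2) on control siRNA but raised it by 0.30 on p53 siRNA, an interaction of 0.61 ± 0.07 (adjusted p = 0.00284). In the list of cell cycle inhibitors and D cyclins 4 of 14 were called higher and 1 lower (2 and 0 with offsets), beside 5.22% and 4.6% of all genes tested. Among them Cdkn2d, the p19 INK4 inhibitor, had 0.56 (not called with offsets). Of 34 S phase genes 3 were called higher and 0 lower (5 and 0 with offsets), with a median of 0.15, beside 5.22% higher over all genes. In the list of DNA damage response genes (2 of 23 higher and 1 lower, 2 and 0 with offsets) H2afx, the histone phosphorylated at breaks, had 0.53.

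Genes of amino acid supply and of protein folding in the endoplasmic reticulum (ER) formed the next group. Of 30 members, 11 were called higher and 0 lower, beside 5.22% and 4.6% of all genes tested, with a median interaction of 0.31. With offsets 8 were higher and 1 lower (median 0.19), beside 4.46% and 2.57%. PRMT1 siRNA lowered 16 of the 30 on control siRNA and 3 on p53 siRNA (15.5% and 16.3% of all genes tested were lowered). p53 siRNA alone lowered 18, beside 6.33% of all genes.

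The ER stress response element is the site through which ATF6 and XBP1 act with NF-Y on chaperone genes, and the stretch that holds it is printed for the 4 list members whose promoter has it, in capitals on either strand. The positions are Hspa5 chr2:34772017-34772051 (plus strand), Pdia6 chr12:17266483-17266517 (plus), Hsp90b1 chr10:86705525-86705664 (minus) and Creld2 chr15:88819512-88819546 (plus), from RefSeq on GRCm38.p6.
Hspa5: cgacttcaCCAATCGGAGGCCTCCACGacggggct
Pdia6: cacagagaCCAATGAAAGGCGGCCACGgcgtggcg
Hsp90b1: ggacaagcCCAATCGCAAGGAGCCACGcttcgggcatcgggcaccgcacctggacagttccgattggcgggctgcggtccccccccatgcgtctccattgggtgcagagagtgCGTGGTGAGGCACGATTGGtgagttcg
Creld2: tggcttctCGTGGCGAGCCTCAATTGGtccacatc
The letters searched on both strands were CCAAT, then 9 of any base, then CCACG, which contain the CCAAT box counted above. They were present in 4 of 27 matched members (14.8%) and in 15 of all 10316 matched genes (0.145%). This motif was chosen after the data had been seen.

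Sdf2l1, an ER protein of the chaperone complex, stood at 33.1 and 27.8 CPM with control siRNA, 23.3 and 22.7 with PRMT1 siRNA, 23.9 and 25.1 with p53 siRNA and 31.5 and 29.4 with both. Each single siRNA lay below the control and the libraries with both overlapped it. The interaction was 0.72 ± 0.13 (adjusted p = 0.0124; kept in 6 of 8 fits that left out 1 library). Xbp1, the transcription factor of the response, had 0.43 (7 of 8), and Psat1, an enzyme of serine synthesis, 0.42 (6 of 8).

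Of the genes with the printed motif, Pdia6, a disulfide isomerase, stood at 283.7 and 251.2 CPM with control siRNA, 196 and 207 with PRMT1 siRNA, 218 and 233 with p53 siRNA and 254 and 228 with both, and its interaction was 0.50 (adjusted p = 0.0177). Hspa5, the chaperone BiP, had 0.36, Hsp90b1, the chaperone GRP94, 0.36, and Creld2, an ER disulfide isomerase, 0.50, the last not called with offsets. All 4 were lower with p53 siRNA alone than with control siRNA, in libraries that also enter the interaction. The count of 11 fell to 0 without PRMT1 siRNA replicate 1, to 1 without p53 siRNA replicate 1, to between 3 and 5 without control siRNA replicate 1, PRMT1 siRNA replicate 2, p53 siRNA replicate 2 or replicate 1 of both, and rose to 19 and 17 without control siRNA replicate 2 or replicate 2 of both.

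Cholesterol synthesis and uptake genes had negative interactions where they were called. PRMT1 siRNA lowered 19 of 23 in each background (15.5% of all genes tested were lowered on control and 16.3% on p53 siRNA). Their median change was -0.45 on control and -0.76 on p53 siRNA. The interaction was called lower in 5 and higher in 0 of 23, beside 4.6% lower over all genes tested, and lower in 6 and higher in 0 with offsets, beside 2.57%. The median was -0.23. Stard4, a sterol carrier, stood at 52.7 and 55.6 CPM with control siRNA, 39.3 and 40.0 with PRMT1 siRNA, 78.7 and 73.5 with p53 siRNA and 38.5 and 41.4 with both. The p53 siRNA libraries were the highest, and the 4 libraries with PRMT1 siRNA overlapped. The interaction was -0.48 ± 0.08 (adjusted p = 0.0101; kept in 7 of 8 fits that left out 1 library).

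Lss, lanosterol synthase, stood at 34.8 and 34.4 CPM with control siRNA, 28.3 and 25.9 with PRMT1 siRNA, 41.9 and 43.4 with p53 siRNA and 25.5 and 24.8 with both. The libraries with both siRNAs were the lowest and those with p53 siRNA alone the highest. Its interaction was -0.41 ± 0.09 (adjusted p = 0.0234), and it was not called with offsets. The number called lower was 0 without p53 siRNA replicate 1, between 1 and 2 without control siRNA replicate 1, either PRMT1 siRNA replicate, p53 siRNA replicate 2 or replicate 1 of both, and 4 or 5 otherwise. All 16 of the members with a matched promoter held CCAAT, against 43% of all genes. The core of the sterol regulatory element, TCACNCCAC with N any base, was present in 1 of these 16 (6.25%), against 1.43% of all matched genes. It was added to the search after the data had been seen.

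**Figure D3:**
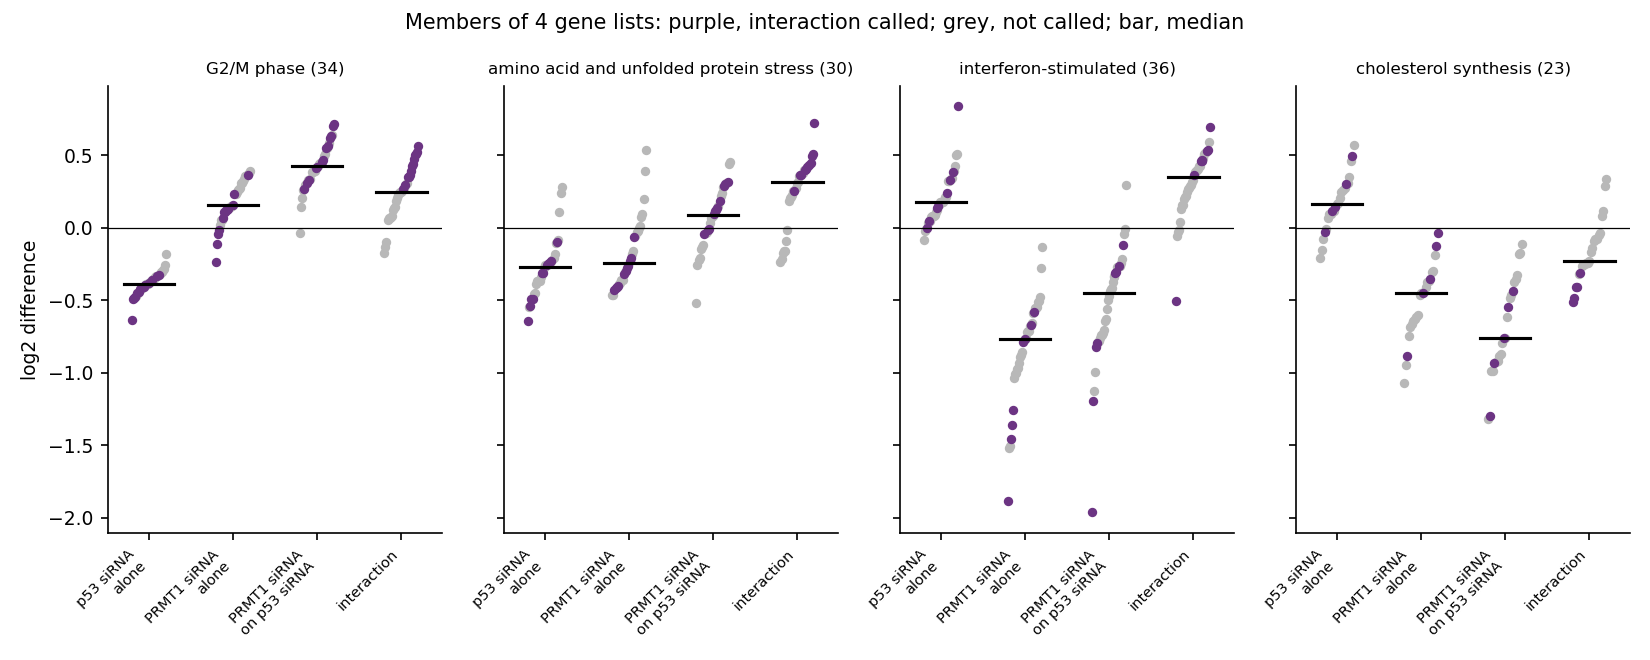
Members of the mitotic, amino acid and unfolded protein, interferon and cholesterol lists, 1 point per gene, by log2 effect of p53 siRNA alone, PRMT1 siRNA alone, PRMT1 siRNA on p53 siRNA, and the interaction, with genes whose interaction was called in purple. Most mitotic genes lie below 0 with p53 siRNA alone and above 0 for PRMT1 siRNA on p53 siRNA, while cholesterol genes lie lower for PRMT1 siRNA on p53 siRNA (median -0.76) than on control siRNA (median -0.45).

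Interferon-stimulated genes fell with PRMT1 siRNA in both backgrounds. Of 36, PRMT1 siRNA lowered 35 on control siRNA and 27 on p53 siRNA (15.5% and 16.3% of all genes tested were lowered). The median changes were -0.77 and -0.45. The interaction was called higher in 7 and lower in 1, without and with offsets, beside 5.22% higher and 4.6% lower over all genes tested without them, and the median was 0.35. The core of the interferon-stimulated response element, to which STAT and IRF proteins bind, is shown in capitals for Oas1a and Igtp of this list and for Cxcl10 of the inflammatory list described below: Cxcl10 chr5:92349085-92349110 (minus strand), Oas1a chr5:120907522-120907553 (minus) and Igtp chr11:58199514-58199539 (plus), from RefSeq on GRCm38.p6.
Cxcl10: acgctttgGAAAGTGAAActtacctc
Oas1a: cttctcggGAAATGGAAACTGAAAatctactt
Igtp: taggaactGAAACTGAAAgctgttcg
The letters GAAA, then 2 of any base, then GAAA were found, on either strand, in 14 of 27 matched members of the list (51.9%) and in 3.81% of all matched genes. The share was 5.63% in genes called higher and 3.38% in genes called lower.

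Mx1, an antiviral GTPase, stood at 75.8 and 84.7 CPM with control siRNA, 19.1 and 24.4 with PRMT1 siRNA, 104 and 105 with p53 siRNA and 50.2 and 40.8 with both. The PRMT1 siRNA libraries were the lowest and the p53 siRNA libraries the highest. PRMT1 siRNA lowered it by 1.89 on control but by 1.19 on p53 siRNA, and the interaction was 0.69 ± 0.15 (adjusted p = 0.0247; kept in 4 of 8 fits that left out 1 library). Cmpk2, a mitochondrial nucleotide kinase (0.53), Usp18, which removes ISG15 (0.46), Oas1a, a sensor of double-stranded RNA (0.53), and Igtp, an immunity-related GTPase (0.46), had the same sign, the last 2 without a call with offsets.

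Ifit2, an RNA-binding antiviral protein, was the exception in the list. It stood at 275 and 327 CPM with control siRNA, 106 and 114 with PRMT1 siRNA, 542 and 533 with p53 siRNA and 146 and 130 with both. Only p53 siRNA alone lay above the control. Its interaction was -0.51 ± 0.12 (adjusted p = 0.0292; kept in 2 of 8). The number called higher in this list was 0 without PRMT1 siRNA replicate 1, p53 siRNA replicate 1 or 2, or replicate 1 of both, between 1 and 2 without control siRNA replicate 1 or PRMT1 siRNA replicate 2, and 9 and 15 without control siRNA replicate 2 or replicate 2 of both.

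Among innate sensing and inflammatory genes 4 of 24 were called higher and 0 lower (3 and 0 with offsets), beside 5.22% higher over all genes tested, with a median of 0.12. Cxcl10, a chemokine for T cells, stood at 968 and 960 CPM with control siRNA, 287 and 361 with PRMT1 siRNA, 932 and 1051 with p53 siRNA and 572 and 470 with both, an interaction of 0.64 ± 0.17 (adjusted p = 0.0344). Its fall with PRMT1 siRNA was smaller on p53 siRNA, with no overlap of the groups that received PRMT1 siRNA. Ccl2, which draws monocytes, was instead raised by PRMT1 siRNA on p53 siRNA only, from 113 and 127 to 192 and 159 CPM, beside 154 and 146 with control and 136 and 144 with PRMT1 siRNA (interaction 0.64). Ccl5 had 0.60 and the cytokine Il6 0.71, both without a call with offsets.

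Epicardial identity genes were mixed. Of 26, 6 were called higher and 2 lower (5 and 2 with offsets), beside 5.22% and 4.6% of all genes tested, with a median of 0.06. Msln, the mesothelial surface protein mesothelin, stood at 155 and 143 CPM with control siRNA, 146 and 148 with PRMT1 siRNA, 105 and 104 with p53 siRNA and 148 and 147 with both. It was low only with p53 siRNA alone, and the other 3 groups overlapped. The interaction was 0.52 ± 0.08 (adjusted p = 0.00658; kept in 8 of 8 fits that left out 1 library).

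Tbx20, a T-box factor of the heart and epicardium, rose with each siRNA alone, from 87.5 and 102 CPM to 124 and 118 with PRMT1 siRNA and 120 and 116 with p53 siRNA, and stood at 87.5 and 96.2 with both, in the range of the control. Its interaction was -0.71 ± 0.11 (adjusted p = 0.00566; -0.37 with offsets; kept in 8 of 8). Sema3d, a secreted guidance protein of epicardial cells, had -0.64 (kept in 7 of 8). Wt1, the zinc finger factor that defines the epicardium, was within 252 to 322 CPM in all libraries, with an interaction of 0.02 ± 0.08 (adjusted p = 0.863). The value for Tbx18, another epicardial T-box factor, was -0.17 ± 0.09 (adjusted p = 0.235). Tnnt2, cardiac troponin T, stood at 20.1 and 18.3 CPM with control, 1.97 and 2.49 with PRMT1, 23.96 and 22.9 with p53 and 4.72 and 3.595 with both siRNAs, so PRMT1 siRNA lowered it in both backgrounds; the interaction of 0.64 ± 0.22 was not called (adjusted p = 0.0701).

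Snai1 and Snai2, factors of mesenchymal transition that repress epithelial genes, had 0.14 ± 0.12 (adjusted p = 0.442) and 0.18 ± 0.14 (0.415), and the filament gene Vim 0.22 ± 0.11 (0.2). Of 28 mesenchymal genes 0 were called higher and 2 lower (2 and 2 with offsets), beside 9.82% of all genes tested in either direction. The 2 called without offsets were Fn1, fibronectin, and Tnc, tenascin C. Fn1 stood at 3792 and 4639 CPM with control, 5446 and 5070 with PRMT1, 4656 and 4760 with p53 and 2848 and 4001 with both siRNAs, and its interaction was -0.78 ± 0.20 (adjusted p = 0.0344; -0.49 with offsets). The control libraries and those with both siRNAs overlapped. The call was kept in 2 of 8 fits that left out 1 library.

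Contractile genes of smooth muscle, a fate of epicardial cells, had 2 of 22 called higher and 1 lower (1 and 1 with offsets), beside 5.22% and 4.6% of all genes, with a median of 0.19. Tagln, or SM22, stood at 124 and 108 CPM with control siRNA, 107 and 107 with PRMT1 siRNA, 54.4 and 74.0 with p53 siRNA and 87.8 and 83.0 with both; its interaction of 0.53 ± 0.16 was not called (adjusted p = 0.0503). Acta2, smooth muscle actin, ranged from 197 to 433 CPM, with 0.34 ± 0.17 (adjusted p = 0.213). Tpm2, a tropomyosin, was called higher at 0.40 and Cald1, caldesmon, lower at -0.39, each kept in 2 of 8 fits that left out 1 library.

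Grem1, which encodes the BMP antagonist gremlin, stood at 179 and 197 CPM with control siRNA, 169 and 168 with PRMT1 siRNA, 91.7 and 96.0 with p53 siRNA and 134 and 136 with both. All groups were apart, with p53 siRNA alone the lowest. The interaction was 0.68 ± 0.09 (adjusted p = 0.00369). Inhbb, a subunit of activin B, had 0.75, and Igfbp7, which binds insulin-like growth factors, 0.84. These 3 core genes were chosen after their values were seen.

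In the list of TGF-beta pathway genes and early targets 1 of 28 was called higher and 2 lower (2 and 3 with offsets), beside 5.22% and 4.6% of all genes, with a median of -0.12. Pmepa1, a feedback inhibitor of the pathway, was called higher at 0.53 (kept in 4 of 8 fits that left out 1 library), beside the lower Id2. Of 27 immediate early genes 3 were called higher and 0 lower, without and with offsets: Klf2, Ier5 (0.60), and Egr1, a zinc finger factor induced by serum (0.53).

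Of 32 collagen and fibroblast matrix genes 2 were called higher and 2 lower, beside 5.22% and 4.6% of all genes tested. With offsets 6 were higher and 3 lower, beside 4.46% and 2.57%. Fmod, fibromodulin, which shapes collagen fibrils, stood at 300.3 and 292 CPM with control siRNA, 139 and 148 with PRMT1 siRNA, 276 and 272 with p53 siRNA and 189 and 206 with both. The PRMT1 siRNA libraries were the lowest, with those of both siRNAs next. Its interaction was 0.57 ± 0.08 (adjusted p = 0.00469). Serpinf1, pigment epithelium-derived factor (0.71), and Pcolce, an enhancer of procollagen processing (0.51), were also kept in 8 of 8 fits that left out 1 library. Loxl1, which cross-links elastin, had 0.33, while the collagen cross-linker Lox had -0.36 and Col12a1, a fibril-associated collagen, -0.90 (-0.47 with offsets); the first 2 kept their calls in 2 of 8 such fits and Col12a1 in 3.

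Of 27 extracellular protease genes and inhibitors 3 were higher and 1 lower (3 and 0 with offsets), beside 5.22% and 4.6% of all genes tested. Timp1, an inhibitor of matrix metalloproteases, had 0.52 (kept in 3 of 8 fits that left out 1 library) and Mmp3, stromelysin, 0.86 (2 of 8). Adamts5, an aggrecanase with a transcript of 10791 bases, had -0.38 without and 0.05 with offsets, so its direction rested on the treatment of length. In the list of hypoxia and glycolysis genes 0 of 27 were higher and 1 lower, without and with offsets. Of 23 heat shock and oxidative stress genes 0 were higher and 1 lower (1 and 1 with offsets). The lower one without offsets was Hmox1, haem oxygenase, at -0.40.

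**Figure D4:**
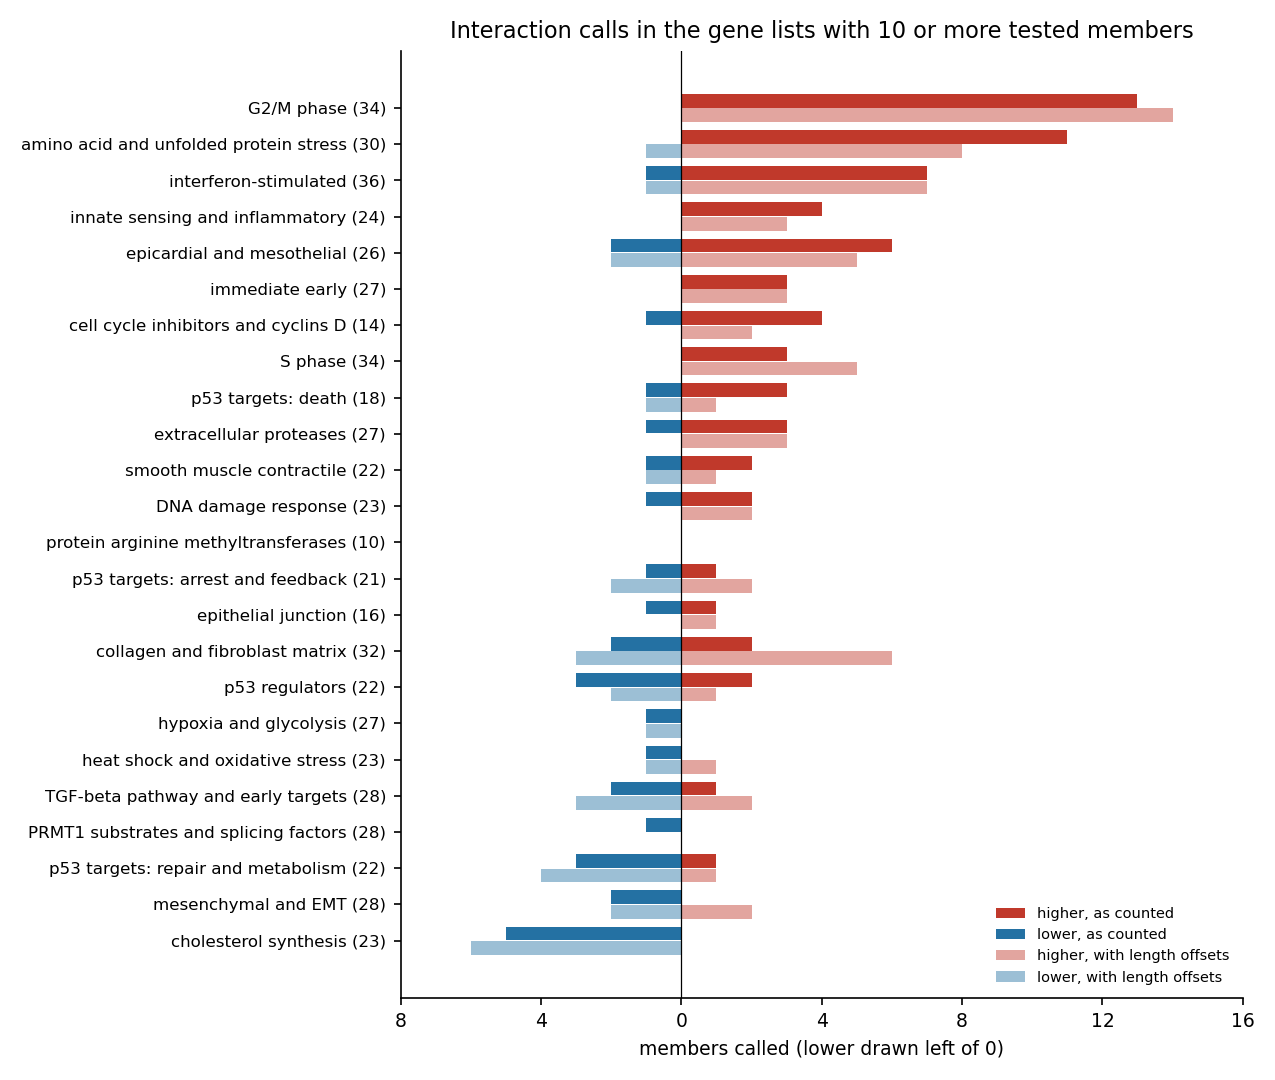
Number of tested members called higher (right of 0) and lower (left of 0) in the interaction for each gene list with at least 10 tested members, without and with length offsets. The mitotic list has the most members called higher (13 and 14), followed by the amino acid and unfolded protein list (11 and 8), and the cholesterol list has 0 higher and 5 or 6 lower.

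The genes named next, with the largest negative values at 5 CPM or more, had transcripts of 4833 bases (Lcor) to 26901 bases (Zbtb20). Zfp871, a zinc finger gene with a transcript of 10851 bases, stood at 26.1 and 52.9 CPM with control siRNA, 53.01 and 46.2 with PRMT1 siRNA, 49.9 and 52.1 with p53 siRNA and 19.5 and 29.0 with both. Control siRNA replicate 1 and both libraries with both siRNAs were low, and the control replicates differed by more than those of any other group. The interaction was -1.43 ± 0.34 (adjusted p = 0.0293; -1.04 with offsets; kept in 2 of 8 fits that left out 1 library).

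Zbtb20, a transcription factor gene with a transcript of 26901 bases, stood at 88.9 and 169 CPM with control, 176 and 160 with PRMT1, 170 and 165 with p53 and 76.2 and 117 with both siRNAs. Its interaction of -1.19 became -0.50 with offsets. The rest of this group were the secreted proteases Pappa2 (-1.31) and Pappa (-1.21), the cadherin Fat4 (-1.30), Gdap10 (-1.28; 5003 bases), the kinase Dgkh (-1.27), the corepressor Lcor (-1.23), the forkhead factor Foxn3 (-1.19), BC005561 (-1.16; 5409 bases) and the ubiquitin ligase Cbl (-1.16). Ptpn14, a phosphatase and p53 target, had -0.64 and a transcript of 10746 bases.

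Pappa, which cleaves insulin-like growth factor binding proteins, was kept in 7 of 8 fits that left out 1 library. It stood at 3.47 and 4.88 CPM with control siRNA, 10.1 and 9.63 with PRMT1 siRNA, 6.93 and 6.79 with p53 siRNA and 6.41 and 7.72 with both. PRMT1 siRNA raised it by 1.24 on control siRNA, with no overlap, and its effect on p53 siRNA was 0.03. Fat4 was kept in 3 of 8, and the others named in this group and the one before in 2 of 8, without offsets.

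Sorted by the 2 PRMT1 siRNA effects, most interaction genes were changed by PRMT1 siRNA in 1 background. On control siRNA only, 308 genes fell with PRMT1 siRNA and had a positive interaction, and 221 rose and had a negative one. On p53 siRNA only, 319 genes with a positive and 378 with a negative interaction were changed, and in 60 genes neither effect was called. In 105 genes PRMT1 siRNA had a called effect in both backgrounds with opposite sign: Ccnd1, Igfbp7 and Sdf2l1 among the 56 with a positive, and Tbx20 and Foxo3 among the 49 with a negative interaction. The effect kept its sign but was smaller on p53 siRNA in 74 genes, such as Mx1, Cxcl10 and Fmod, and larger in 57, such as Cdkn1a, Phlda3 and Stard4. These classes moved with length offsets. Control siRNA only and p53 siRNA only held 529 and 697 genes without offsets, and 398 and 373 with them. With offsets the effect was smaller in 121, larger in 86, opposite in 97 and called in neither background in 14. A call in 1 background alone is not a test of the difference, which the interaction itself gives.

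**Figure D5:**
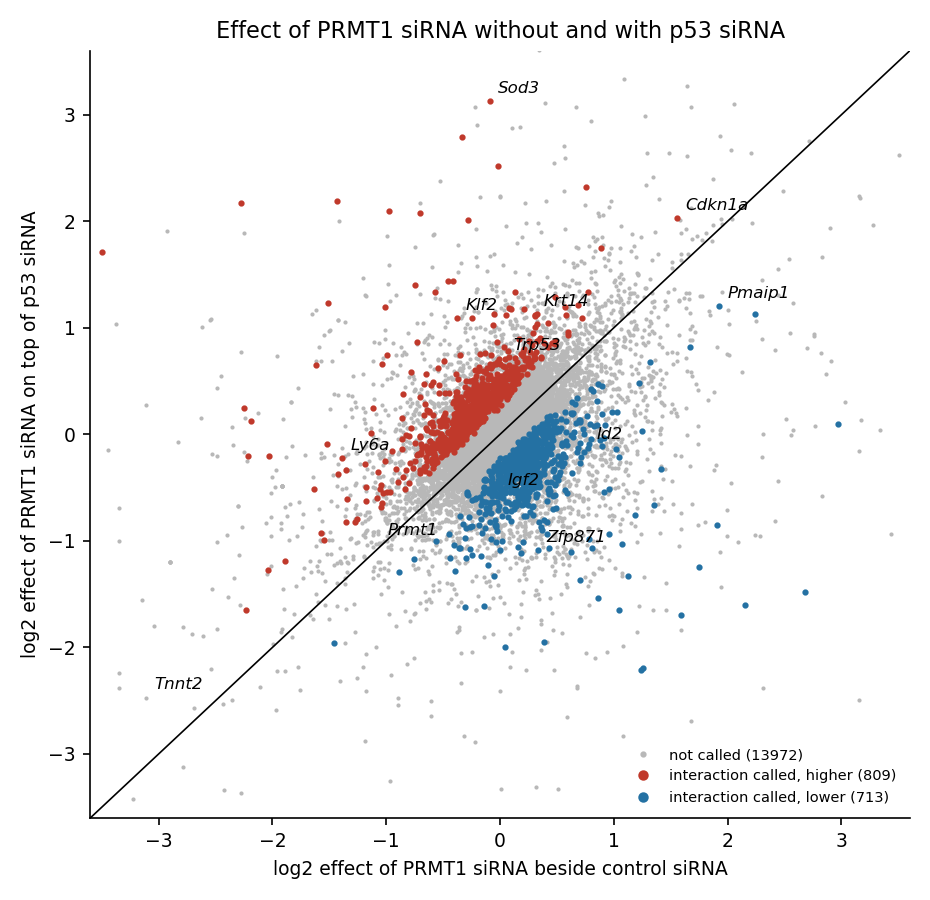
Log2 effect of PRMT1 siRNA on control siRNA (x axis) against that on p53 siRNA (y axis), 1 point per gene, with genes called in the interaction coloured by direction. Called genes lie away from the diagonal, such as Ccnd1 at -0.31 and 0.30; the axes end at 3.6 on either side and 80 genes lie outside them.

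The same interaction was measured in cells that received TGF-beta, in other libraries, with p53 siRNA represented by 1 library. There 404 genes (2.61%) were called, 260 (1.68%) higher and 144 (0.929%) lower. With offsets 613 (3.96%) were called, 2.39% higher and 1.56% lower. The difference between the interactions without and with TGF-beta was itself called in 12.3% of genes, and in 4.25% with offsets. Of the genes called without TGF-beta, 33.8% had the same sign with TGF-beta, against 39.8% of genes not called; with offsets the shares were 50.8% and 47.2%. Of the genes called in both, 48 had the same and 25 the opposite sign, and 93 and 29 with offsets.

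Genes called with the same sign with TGF-beta included Ccnd1 (0.61 without and 1.15 with TGF-beta), Msln (0.52 and 1.06), Grem1 (0.68 and 0.99), Inhbb (0.75 and 1.30), Ephx1 (0.72 and 0.73), Psat1 (0.42 and 0.50) and Igf2 (-0.55 and -0.74). Krt14 (0.81 and -0.53), Timp1 (0.52 and -0.50), Pmepa1 (0.53 and -0.44) and Pappa (-1.21 and 1.48) had opposite signs. Trp53 had 0.66 without TGF-beta and 0.26 with it (adjusted p = 0.161). With TGF-beta the median interaction was 0.67 over the 36 interferon-stimulated genes and 0.17 over the 34 mitotic genes. Both medians rest on 1 library of p53 siRNA with TGF-beta.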

How the data were processed

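The authors deposited 1 table of expected counts, not scaled for depth or length. The submitters' processing notes name TopHat2, Partek and mm10; annotation, strand and counting options were not given in the sources used here. Groups came from the sample titles. Values were rounded before testing; 60.05% of those above 0 were whole within 0.01.

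The main model had 1 mean per group over 15 libraries, leaving out replicate 2 of p53 siRNA with TGF-beta, whose length profile stands apart and which is outside the comparison. It used edgeR 4.0.16 in R 4.3.3 with TMM scaling, the filterByExpr filter and the quasi-likelihood F test; a standard error is the absolute log2 value divided by the square root of F. Length offsets were lowess curves (span 0.3) on the longest GENCODE M21 transcript, matched for 42003 genes by symbol and 809 by synonym. Alternatives were DESeq2 1.42.0, RLE factors, other filters and library sets, and a replicate block. The script was tested on simulated data.

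The rule for named genes took the 2 siRNA targets, Mdm2, Mdm4 and Cdkn1a, 12 genes per direction by size of the called interaction at 5 CPM or more without overlap, the 4 lowest p-values of each list, and 10 epicardial, mesenchymal and contractile markers. Clone-named genes are not described, and some results are not reported here. Genes shown for a promoter motif or as core genes were added after values were seen. The members, lists and tests were chosen with earlier results of these data known.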

Additional observations from a re-analysis of the deposited data

Results flagged for a closer look

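The interaction differed between cells without and with TGF-beta in 1901 genes, 12.3% of those tested, by the test of the difference itself, and in 658 (4.25%) with length offsets. The p53 siRNA group with TGF-beta is 1 library in this fit and is assumed to vary like the others. Of the 102 genes examined by name, 48 passed, and the 33 below passed with length offsets as well. Values are the interaction with TGF-beta minus the interaction without it, on the log2 scale.

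Among secreted and matrix genes the difference was -2.14 for Sod3, -1.08 for Igfbp7, -0.78 for Serpinf1, -0.55 for Pcolce, -0.83 for Fmod, -0.49 for Loxl1, -1.03 for Timp1, 1.17 for Sema3d and 2.69 for Pappa. Among epithelial, epicardial and surface genes it was -1.34 for Krt14, 0.54 for Msln, 1.08 for Tbx20, -1.07 for Scx, -1.95 for Crip2, -1.20 for Medag, -0.98 for Kcnk2, 1.61 for Fat4 and 2.28 for Ly6a, whose value is uncertain for the reason given above. Msln gained in the same direction, while Krt14 and Pappa had opposite signs without and with TGF-beta.

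Among cell cycle, stress and signalling genes it was 0.55 for Ccnd1, -0.45 for Cenpa, -0.74 for H2afx, 0.88 for Rrm2b, -0.54 for Xbp1, -0.96 for Pmepa1, -0.75 for Ier5, -1.17 for Il6 and 1.03 for Ifit2. Among the genes with the largest negative interactions without TGF-beta it was 1.97 for Zfp871, 2.58 for Gdap10, 1.97 for Lcor, 1.51 for Foxn3, 1.83 for BC005561 and 1.80 for Cbl. The median interaction in the fifth of genes with the longest transcripts was -0.22 without and 0.17 with TGF-beta, and the part of length in these 6 values was not tested beyond the offsets.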

How the results depend on the processing

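The number of genes called in the interaction without TGF-beta was 1522. It was 0 with all 16 libraries, 120 with the 8 libraries of the comparison alone, 2526 with no low-count filter, 418 with length offsets on the 8 libraries and 40 with offsets on all 16. Leaving out 1 of the 8 libraries gave 86 to 3779, and 231 to 1957 with offsets. RLE factors gave 1553, DESeq2 1347, of which 1067 were shared, and a filter on the 8 libraries 1651. The combined offset settings were chosen after the data had been seen.

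The main model did not pair replicates with the same number. The correlation of their deviations from the group means ran from -0.24 (p53 siRNA with both) to 0.25 (control with both). Whether the numbers stand for a batch cannot be told from the titles. A replicate block gave 2157 genes, which include all 1522, and 1258 with offsets.

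The effect of PRMT1 siRNA on control siRNA (4317 genes) was called in 1601 with 16 libraries and in 2520 to 4568 without 1 library. On p53 siRNA (5041) it was called in 1656, in 2876 with offsets on 16, and in 2799 to 5086. The p53 siRNA effect (1880) had 382, 1218 with 8 libraries, 1146 with offsets on 16, and 530 to 2543. The interaction with TGF-beta (404) had 118 with 16 libraries, 1192 with no filter, 613 with offsets and 102 to 277. The difference by TGF-beta (1901) had 3 with 16 libraries, 658 with offsets, 609 with block and offsets, 40 with offsets on 16, and 31 to 3920.

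Among the genes examined by name the sign changed for 7, of which only Adamts5 was called; the cause was not tested. With offsets, with block and offsets, with offsets on 8 and with offsets on 16 libraries, the log2 interaction was -0.089, -0.0925, -0.0986 and -0.0866 for Prmt1, 0.0735, 0.0738, 0.075 and 0.076 for Mdm4, -0.0184, -0.0187, -0.0315 and -0.0146 for Wt1, -0.0339, -0.0355, -0.0538 and -0.0234 for Snai1 and 0.0455, 0.0418, 0.0623 and 0.0468 for Adamts5. Without 1 library it lay between -0.1147 and 0.1776 for Prmt1, -0.0382 and 0.0779 for Wt1, -0.29 and -0.0513 for Mdm4, 0.0322 and 0.2305 for Snai1, 0.0814 and 0.2576 for Snai2, 0.1185 and 0.5855 for Acta2 and -0.4666 and -0.3192 for Adamts5. Without 1 library and with offsets it lay between -0.1959 and 0.0118 for Prmt1, 0.0292 and 0.1204 for Mdm4, -0.0647 and 0.036 for Wt1, -0.1131 and 0.0566 for Snai1, -0.0266 and 0.1021 for Snai2, -0.0247 and 0.4658 for Acta2 and -0.0683 and 0.1525 for Adamts5. Of the 102 genes examined by name, 91 had a call to lose, and all 91 lost it with 16 libraries. The call was lost by 57 with 8 libraries, 10 with offsets, 12 with DESeq2 and 0 with RLE factors. The 12 include Klf2, Sod3, Ifi27l2b, Ano2, Pappa2, Gdap10 and Mmp3, for which DESeq2 gave no adjusted p-value. With offsets Adamts5 also lost its call, with a change of sign.

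With 2 libraries per group and effects of about 0.5 on the log2 scale, leaving out 1 library leaves a group with 1, assumed to vary like the others, and the counts above move with it.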
